A study of Mus musculus with 12 samples.

Results

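Transcripts of 9 nuclear hormone receptor genes were followed in dermal papilla (DP) cells of the mouse hair follicle. They encode the estrogen receptor (Esr1), the glucocorticoid receptor (Nr3c1), the vitamin D receptor (Vdr), the thyroid hormone receptors (Thra and Thrb), the retinoic acid receptors (Rara, Rarb and Rarg) and a retinoid X receptor (Rxra). The genes were chosen by symbol, and all 9 were present in the deposited tables of both days, out of 15557 genes in either table. RNA of YFP-positive cells sorted by FACS from dissociated back skin was sequenced from 3 control and 3 dMF1/2 libraries at each of P14 and P16, postnatal days on which the labels place the follicles in anagen, the growth phase. dMF1/2 mice carry Cor-cre and floxed copies of both alleles of Fgfr1 and Fgfr2, so that these fibroblast growth factor receptors are deleted where Corin drives Cre, in the DP after birth. The labels call the controls wild type, whereas the study's methods name as controls mice with Cor-cre and 1 floxed allele of each gene, or mice with the floxed alleles and no Cre. Both genotypes carry a YFP reporter that Cre switches on, so YFP-positive control cells can come only from mice with Cre. Of the control genotypes named, the one with Cre has 1 floxed allele of each gene. The labels do not give the control genotype of each library.

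Nuclear receptors are transcription factors that bind DNA and change the transcription of nearby genes when a small lipid-soluble ligand enters the cell. Receptors for vitamin D, thyroid hormone and retinoic acid act mostly as pairs with a retinoid X receptor, whereas steroid receptors act mostly as pairs of themselves and are held ready by heat shock protein chaperones. In hair biology the vitamin D receptor is known for the hair loss that follows its inactivation in the epithelium, the estrogen receptor for holding follicles in rest through the papilla, and glucocorticoids and retinoids for shifting the timing of the cycle.

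The reads counted on the protein-coding genes of the deposited tables summed to 19302358 to 29860750 per library. Levels of genes are given as normalized reads, that is, reads scaled over the 12 libraries so that samples of both days can be set side by side, except for Fgfr1 and Fgfr2, which are on the deposited scaling of each day, and marker sums, which are in CPM. Genotype tests within a day used the deposited scaling. The targeted genes were still read: Fgfr1 had 7745 to 9981 deposited normalized reads in P14 control and 6391 to 7405 in P14 dMF1/2 libraries, and 8512 to 12517 against 6226 to 8015 at P16, with no overlap on either day. Of all genes tested, 12.7% did not overlap at P14 and 24.5% at P16. The log2 difference of Fgfr1, dMF1/2 over control, was -0.40 at P14 (SE 0.13, adjusted p = 0.501 by limma). At P16 it was -0.50 (SE 0.16, adjusted p = 0.130 by limma). Fgfr2 overlapped between genotypes on both days, at 4483 to 4939.5 in control and 3669 to 5190.3 in dMF1/2 at P14, and at 4763 to 5356 and 4113 to 5575 at P16. The counts are of whole genes, so reads outside the deleted exons are included. Markers of the DP were abundant, at 1623 to 6669.9 CPM (reads scaled to a common library total) summed over 12 genes. Of the other cell types, 11 of 13 keratinocyte markers were in both tables and summed to 11.3 to 42.1 CPM, 5 endothelial markers to 13.8 to 43.0, 5 of 6 immune markers to 9.53 to 18.0 and 5 melanocyte markers to 1.70 to 3.87. Among the defining markers, Krt35 of hair keratinocytes, Ptprc of leukocytes and Dct and Tyrp1 of melanocytes had 0 reads in at least 1 library, and Epcam of epithelium had 1 to 8 reads. Keratinocyte, melanocyte, immune and dermal sheath markers gave 0 calls by limma in every comparison, with at most 2 per list at an unadjusted p under 0.05. Emcn of endothelium rose in control days (log2 change 2.52, adjusted p = 0.0252), and Plin1 of adipocytes fell by 2.37 in control days (adjusted p = 0.00558) and was higher in dMF1/2 at P16 (2.43, adjusted p = 0.00604). Dermal sheath markers, which lie around the papilla, were higher, at 729.5 to 1870 CPM over 5 genes. In bulk RNA of this kind, fewer cells of a type and less RNA per cell cannot be told apart.

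Of the 9 receptors, Vdr differed between genotypes at P16 with and without pairing of same-numbered libraries, and Thra and Rarg with pairing, while Nr3c1 rose and Rara fell from P14 to P16 in both genotypes and Vdr rose in control. A gene was called when its adjusted p from limma, computed over all genes tested, was under 0.05. At P14 the genotypes differed at 0 of 9 receptors by limma and also by DESeq2 and by edgeR, and 0.0525% of all genes tested were called. At P16, 1 of 9 receptors (Vdr) was called, against 4.32% of all genes. With same-numbered libraries paired as a block, 3 of 9 (Vdr, Thra and Rarg) were called at P16, against 10.4% of all genes, and 0 of 9 at P14, against 1.68%. From P14 to P16, 3 of 9 were called in control against 14.5% of all genes, and 2 of 9 in dMF1/2 against 5.8%. At an unadjusted p under 0.05 there were 0, 3, 7 and 2 of 9 receptors without pairing, at P14, at P16, in control days and in dMF1/2 days in that order, against 7.32%, 19%, 31.9% and 22.8% of all genes. The receptors were not tested as a list. The median log2 change of the 9 was 0.01, 0.08, 0.08 and -0.02 in the same order, next to 0.00, 0.00, 0.01 and 0.01 over all genes tested.

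**Figure D1:**
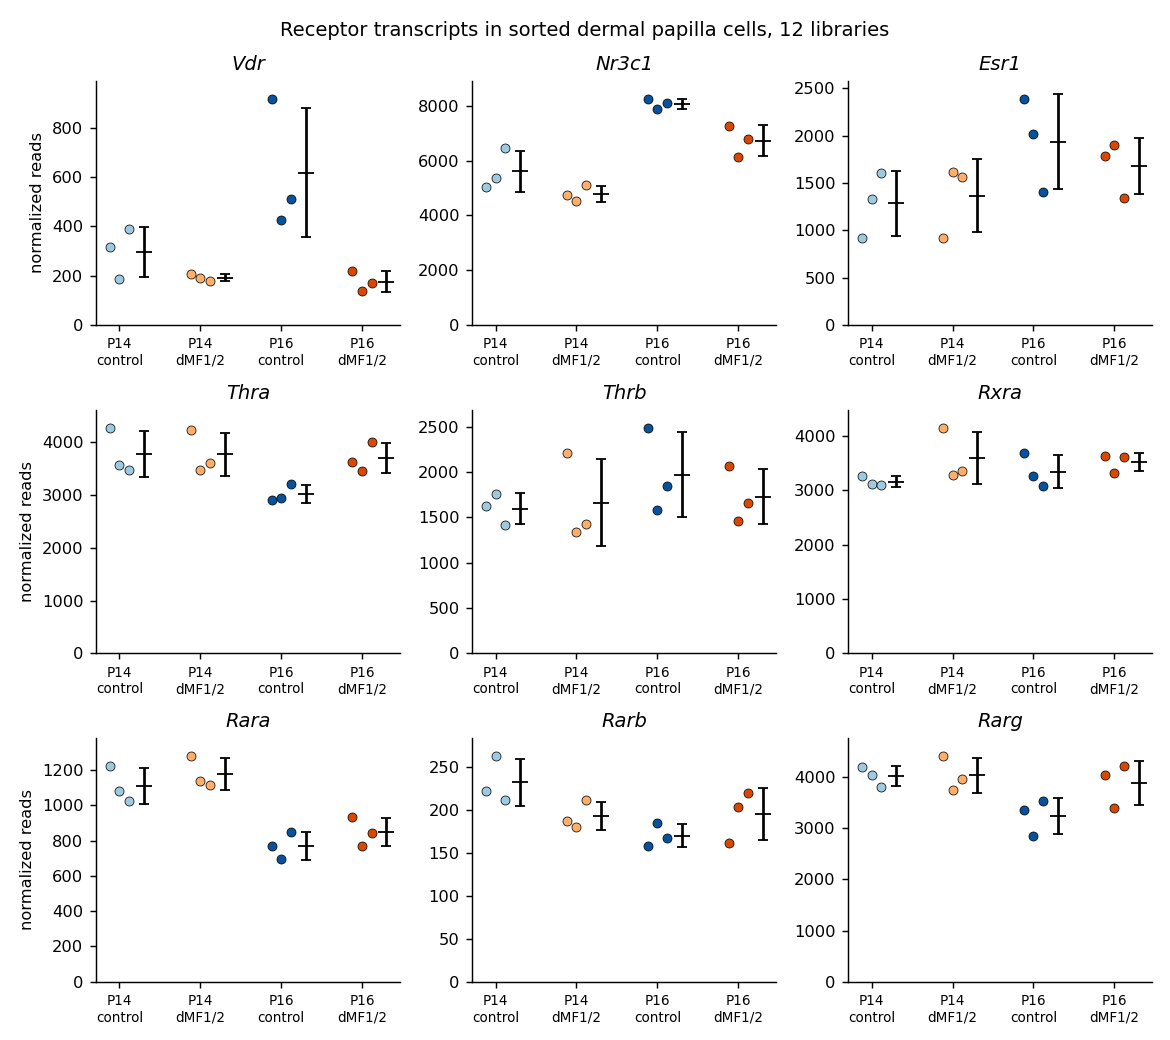
Normalized reads of the 9 receptors (vertical axes, each from 0) in the 12 libraries, grouped by day and genotype on the horizontal axes. Points are libraries, and the bars beside them are the mean ± SD of 3 libraries. The Vdr points of P16 control lie between 426 and 917, above all other libraries, and the Nr3c1 points of P16 lie above those of P14 in the same genotype.

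Vdr, which binds the active form of vitamin D, was higher in P16 control DP cells, at 618 ± 263 normalized reads (SD, n = 3), than in P16 dMF1/2 cells, at 176 ± 41.4 (SD, n = 3). Its gene lies on the minus strand of chromosome 15 (GRCm38, chr15:97854425-97910630). The bases around a RefSeq start of the gene, chr15:97908247-97908546 on the minus strand of GRCm38.p6, are shown because Vdr was called between genotypes in both the paired and the unpaired fit. Written 5′ to 3′, they run from 250 bases before the start to 50 bases after it.
Vdr promoter: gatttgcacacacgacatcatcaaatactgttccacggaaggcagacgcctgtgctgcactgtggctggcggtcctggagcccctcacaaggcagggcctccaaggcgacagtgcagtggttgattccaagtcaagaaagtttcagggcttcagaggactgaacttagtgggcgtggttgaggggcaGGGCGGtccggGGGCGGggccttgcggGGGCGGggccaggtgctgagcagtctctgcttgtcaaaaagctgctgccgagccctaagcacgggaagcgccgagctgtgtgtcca
The capitals mark 3 copies of GGGCGG, a motif bound by Sp1-type factors, at bases -63 to -58, -52 to -47 and -36 to -31 before the start. On both strands, 35.7% of 32851 RefSeq windows of this length hold at least 1 copy, and TATAAA was not found in this window. The match is a description of the letters only.

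In P14 control libraries Vdr had 315, 188 and 389 normalized reads, and in P14 dMF1/2 libraries it had 206, 188 and 177. These groups overlapped, because the second control was as low as the mutants, and the log2 difference of -0.58 (SE 0.26) had an adjusted p of 0.708 by limma. In P16 control libraries Vdr had 917, 426 and 510 normalized reads. In P16 dMF1/2 libraries it had 220, 138 and 169, so that the highest mutant was below the lowest control. The log2 difference at P16, dMF1/2 over control, was -1.75 (SE 0.29), with an adjusted p of 0.0172 by limma and an exact permutation p of 0.1, the smallest that 3 against 3 libraries allow. With same-numbered libraries paired as a block, the adjusted p by limma was 7.17e-04.

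In the unpaired fit, the size of the Vdr difference was kept without any single library, but the call was not. Leaving out a library was not tried in the paired fit. The log2 difference ranged from -1.97 to -1.42 with 1 library left out in turn. The adjusted p by limma was 0.0547 without the third control, 0.0540 without the second mutant and 0.0721 without the third mutant library. Without the first control library, in which Vdr was highest, the difference was -1.42 with an adjusted p of 0.0133. The summed DP markers also separated the genotypes at P16, at 1623 to 2912 CPM in control and 3144 to 4829 in dMF1/2, and the first control had both the highest Vdr and the lowest DP marker sum. Their part in the Vdr difference was not tested. Keratinocyte markers were 11.3 to 31.6 CPM in P16 control and 23.1 to 27.6 in P16 dMF1/2, and overlapped. Endothelial markers were 13.8, 42.1 and 43.0 CPM in the P16 controls, lowest in the library with the most Vdr, and 22.0 to 36.3 in P16 dMF1/2. The median log2 difference of the 5 endothelial markers in dMF1/2 at P16 was -1.05, with 0 called by limma and 2 (Emcn and Tie1) at an unadjusted p under 0.05, and their median change in control days was 1.71. Each median had the sign of the Vdr change in that comparison. Kdr, named after its values were seen, had the opposite sign in both, with a log2 difference of 0.92 at P16 (SE 0.41, adjusted p = 0.274) and a change of -0.66 in control days (SE 0.36, adjusted p = 0.231). The part of these markers in the Vdr difference was not tested.

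**Figure D2:**
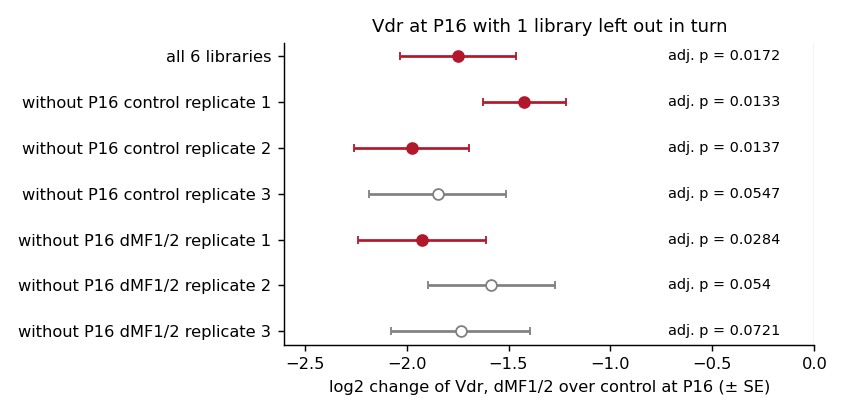
Log2 change of Vdr in dMF1/2 over control at P16 (horizontal axis, ± SE) with all 6 libraries and with each library left out in turn (rows), from the unpaired fit. Filled points have an adjusted p under 0.05. The change stays between -1.97 and -1.42 in every row, and 3 of the 6 rows with a library left out have an adjusted p above the threshold.

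From P14 to P16 Vdr rose in control by 1.03 on the log2 scale (SE 0.30), with an adjusted p of 0.0425 by limma and no overlap between the days. This call was lost without P14 control replicate 1 (0.0881) or 2 (0.128), without P16 control replicate 1 (0.150) or 3 (0.0752), and when only the 6 control libraries were fitted (0.109). In dMF1/2 the change was -0.14 (SE 0.30, adjusted p = 0.832 by limma), and the days overlapped. The difference between these changes, the interaction, was -1.18 (SE 0.43), with a p of 0.0186 and an adjusted p of 0.999996 by limma over all genes. It was 0.206 with the replicate block. A different response of Vdr to the days in the genotypes was thus not established after adjustment.

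Nr3c1, the receptor of cortisol and corticosterone, rose from P14 to P16 in both genotypes. It had 5040, 5352 and 6458 normalized reads in P14 control and 8253, 7892 and 8096 in P16 control. In dMF1/2 it had 4740, 4536 and 5115 at P14 and 7273, 6132 and 6777 at P16. Each P16 library was above all P14 libraries of its genotype. The log2 rise was 0.53 (SE 0.10, adjusted p = 0.00928 by limma) in control and 0.49 (SE 0.10, adjusted p = 0.0218) in dMF1/2, and the interaction was -0.05 (SE 0.15, adjusted p = 0.999996). The control call held without any 1 library, at adjusted p-values of 0.00458 to 0.0393. The dMF1/2 call was lost when only the 6 dMF1/2 libraries were fitted (0.0534), and without the second P14 (0.0846), the third P14 (0.050003, just above the threshold), the first P16 (0.102) or the third P16 library (0.0725).

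Between genotypes Nr3c1 was lower in all 3 dMF1/2 libraries than in all 3 controls at P16, by 0.26 on the log2 scale (SE 0.09). This had an adjusted p of 0.176 by limma and 0.0678 with the replicate block, and so was not called. At P14 the log2 difference was -0.22 (SE 0.12, adjusted p = 0.810), and the genotypes overlapped.

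Esr1 (chr10:4611593-5005614), which binds estradiol, varied widely between libraries of a group. It had 923, 1329 and 1601 normalized reads in P14 control and 922, 1614 and 1563 in P14 dMF1/2. At P16 it had 2386, 2022 and 1399 in control and 1787, 1900 and 1345 in dMF1/2. All groups overlapped, with 1 low library in each group at P14. The log2 change over the days was 0.59 in control (SE 0.27, adjusted p = 0.153 by limma) and 0.32 in dMF1/2 (SE 0.27, adjusted p = 0.519). Between genotypes it was 0.08 at P14 (SE 0.27) and -0.18 at P16 (SE 0.21).

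The thyroid hormone receptors Thra (chr11:98740638-98769006) and Thrb (chr14:17660960-18038088) bind the same hormone. Thra had 4282, 3572 and 3474 normalized reads in P14 control and 4242, 3478 and 3610 in P14 dMF1/2. At P16 it had 2904, 2952 and 3215 in control and 3625, 3465 and 4017 in dMF1/2. All P16 controls were below all other libraries, while the other groups overlapped. The P16 difference, dMF1/2 over control, was 0.30 on the log2 scale (SE 0.09), with an adjusted p of 0.109 by limma and of 0.0309 with the replicate block. The control change over the days was -0.32 (SE 0.11, adjusted p = 0.0683 by limma, 0.0396 by DESeq2), and that in dMF1/2 was -0.03 (SE 0.11, adjusted p = 0.919). Thra shares 1075 bases with Nr1d1, which lies on the opposite strand of chromosome 11. The libraries were stranded, but the strand setting of the counting is not given in the sources used here, so their reads may not be fully separated.

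Thrb had 1624, 1754 and 1414 normalized reads in P14 control and 2216, 1340 and 1431 in P14 dMF1/2. It had 2492, 1580 and 1846 in P16 control and 2064, 1462 and 1663 in P16 dMF1/2. The first library of P14 dMF1/2 and the first of P16 control were well above the others of their groups, all groups overlapped, and none of the 4 comparisons was called, with log2 changes of -0.17 to 0.28.

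In control days the retinoic acid receptors Rara, Rarb and Rarg all fell without overlap, where 36% of all genes tested did not overlap. Whether they differed from each other was not tested. Rara (chr11:98927818-98974942), which changed over the days in both genotypes, had 1221, 1084 and 1022 normalized reads in P14 control and 767, 693 and 850 in P16 control. In dMF1/2 it had 1280, 1137 and 1115 at P14 and 935, 772 and 841 at P16. In both genotypes every P16 library was below every P14 library. Rara fell by 0.53 on the log2 scale in control (SE 0.11, adjusted p = 0.0107 by limma) and by 0.47 in dMF1/2 (SE 0.11, adjusted p = 0.0273). The control call held without any 1 library, at 0.0123 to 0.0448. The dMF1/2 call was lost with only the 6 dMF1/2 libraries (0.0604) and without P14 replicate 1 (0.0687), 2 (0.0685) or 3 (0.0642) or P16 replicate 2 (0.0739) or 3 (0.0846). The genotypes overlapped at both days, with log2 differences of 0.09 at P14 (SE 0.10) and 0.15 at P16 (SE 0.11).

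Rarb is itself a known target of retinoic acid receptors, through an element of repeated half-sites before its start. It lies on the minus strand of chromosome 14 (chr14:16430842-16575472), and the RefSeq window around its start, chr14:16575427-16575726 on the minus strand of GRCm38.p6, is shown for that element.
Rarb promoter: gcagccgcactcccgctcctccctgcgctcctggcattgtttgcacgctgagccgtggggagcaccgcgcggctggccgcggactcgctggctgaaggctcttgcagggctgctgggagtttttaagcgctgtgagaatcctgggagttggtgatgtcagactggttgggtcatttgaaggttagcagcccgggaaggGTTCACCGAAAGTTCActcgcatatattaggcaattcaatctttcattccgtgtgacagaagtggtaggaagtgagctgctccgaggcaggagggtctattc
The capitals mark a direct repeat of GTTCA with 6 bases between the copies, at bases -52 to -37. Searched on both strands, this repeat was in 25 of 32851 RefSeq windows (0.0761%). Over the 9 receptors, 7 had windows, 14 in all, and Nr3c1 and Thra had none.

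Rarb had 223, 263 and 211 normalized reads in P14 control and 158, 185 and 167 in P16 control. It had 188, 181 and 212 in P14 dMF1/2 and 162, 204 and 220.2 in P16 dMF1/2. The control days did not overlap, whereas the dMF1/2 days and both genotype pairs did. The control change was -0.45 on the log2 scale (SE 0.14), with an adjusted p of 0.0520 by limma, just above the threshold, and 0.0299 by DESeq2 and 0.0423 by edgeR's quasi-likelihood test. The dMF1/2 change was 0.00 (SE 0.14), and the interaction was 0.45 (SE 0.20), with a p of 0.0415 and an adjusted p of 0.999996 by limma.

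Rarg (chr15:102234938-102257517) had 4195, 4047 and 3804 normalized reads in P14 control and 4409, 3740.1 and 3954 in P14 dMF1/2. At P16 it had 3347, 2839 and 3528 in control and 4031, 3395 and 4223 in dMF1/2. The P16 controls were below the P14 controls without overlap, and overlapped the P16 mutants. The P16 difference was 0.27 on the log2 scale (SE 0.12), with an adjusted p of 0.266 by limma and 0.0374 with the replicate block. The control change over the days was -0.32 (SE 0.11, adjusted p = 0.0748), and that in dMF1/2 was -0.06 (SE 0.11, adjusted p = 0.807).

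Rxra, the shared partner of the vitamin D, thyroid hormone and retinoic acid receptors, lies on chromosome 2 (chr2:27676440-27762957) and was called in none of the comparisons. It had 3272, 3109 and 3104 normalized reads in P14 control and 4158, 3284 and 3351 in P14 dMF1/2. It had 3683, 3261 and 3085 in P16 control and 3627, 3324 and 3607 in P16 dMF1/2. The P14 genotypes did not overlap by a small margin, with a log2 difference of 0.18 (SE 0.11, adjusted p = 0.847 by limma). The log2 change over the days was 0.08 in control and -0.02 in dMF1/2, each with an SE of 0.10.

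Groups did not overlap at 1 of 9 receptors at P14 (Rxra), where 12.7% of all genes tested did not overlap, and at 3 of 9 at P16 (Nr3c1, Vdr and Thra), where 24.5% did not. Over the days the figures were 6 of 9 in control (Nr3c1, Vdr, Thra, Rara, Rarb and Rarg) against 36% of genes, and 2 of 9 in dMF1/2 (Nr3c1 and Rara) against 27.6%. The comparisons of days and of genotypes share their libraries. For the interaction of genotype and day, 0 of 9 receptors and 0% of all genes were called by limma. At an unadjusted p under 0.05 there were 2 receptors (Vdr and Rarb) and 648 genes, while DESeq2 called 0 receptors and 7 genes, and edgeR called 0 of both.

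**Figure D3:**
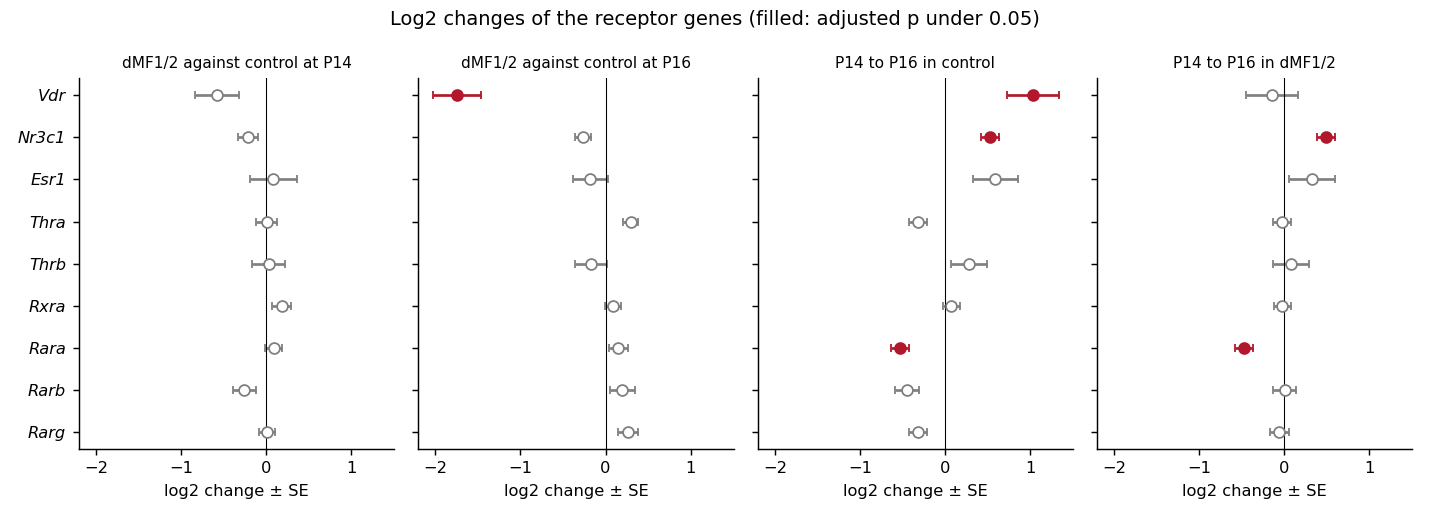
Log2 changes (horizontal axes, ± SE from limma) of the 9 receptors (rows) in the 4 comparisons (panels). Filled red points have an adjusted p under 0.05 over all genes tested. There are 0 filled points at P14, 1 at P16 (Vdr), 3 for the days in control and 2 for the days in dMF1/2.

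Levels of different genes were compared per length, as normalized reads per kilobase of exon averaged over the 12 libraries. The order of the 9 was Rarg (890), Nr3c1 (821), Thra (774), Rxra (623), Thrb (235), Rara (224), Esr1 (115), Vdr (56.7) and Rarb (37.6). The ranges of the 12 libraries overlapped between all neighbours in this order except Rxra (565 to 761) and Thrb (181 to 337). This order of means over 12 libraries depended on the group. In control, Rarg (942 ± 46.4, SD, n = 3) was above Nr3c1 (731 ± 97.0) at P14, and Nr3c1 (1052 ± 23.6) was above Rarg (760 ± 83.9) at P16. In P14 dMF1/2, Nr3c1 (624 ± 38.2) and Rxra (659 ± 89.0) did not differ beyond their spread. In control, Rara (254 ± 23.3) was above Thrb (216 ± 23.2) by mean at P14 and below it at P16 (176 ± 18.0 against 266 ± 63.3). Vdr and Rarb, at the lower end, also depended on the group. Vdr was 109 ± 46.5 (SD, n = 3) and Rarb 32.3 ± 2.53 reads per kilobase in P16 control, whereas Vdr was 31.1 ± 7.32 and Rarb 37.1 ± 5.74 in P16 dMF1/2, which did not differ beyond their spread.

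Among 39 nuclear receptor genes in both tables, 4 of the 9 ranked 2 to 5, below the orphan receptor Nr4a1 (3548 reads per kilobase) and above the clock gene Nr1d1 (522) by the mean over 12 libraries. In P16 control, Nr1d1 (721 ± 391, SD, n = 3) was above Thra (655 ± 36.2) and Rxra (612 ± 56.2) by mean, within its spread. Esr2, the other estrogen receptor, had 2 to 9 reads per library. Of the other retinoid X receptors, Rxrb was at 204 and Rxrg at 4.40 reads per kilobase.

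**Figure D4:**
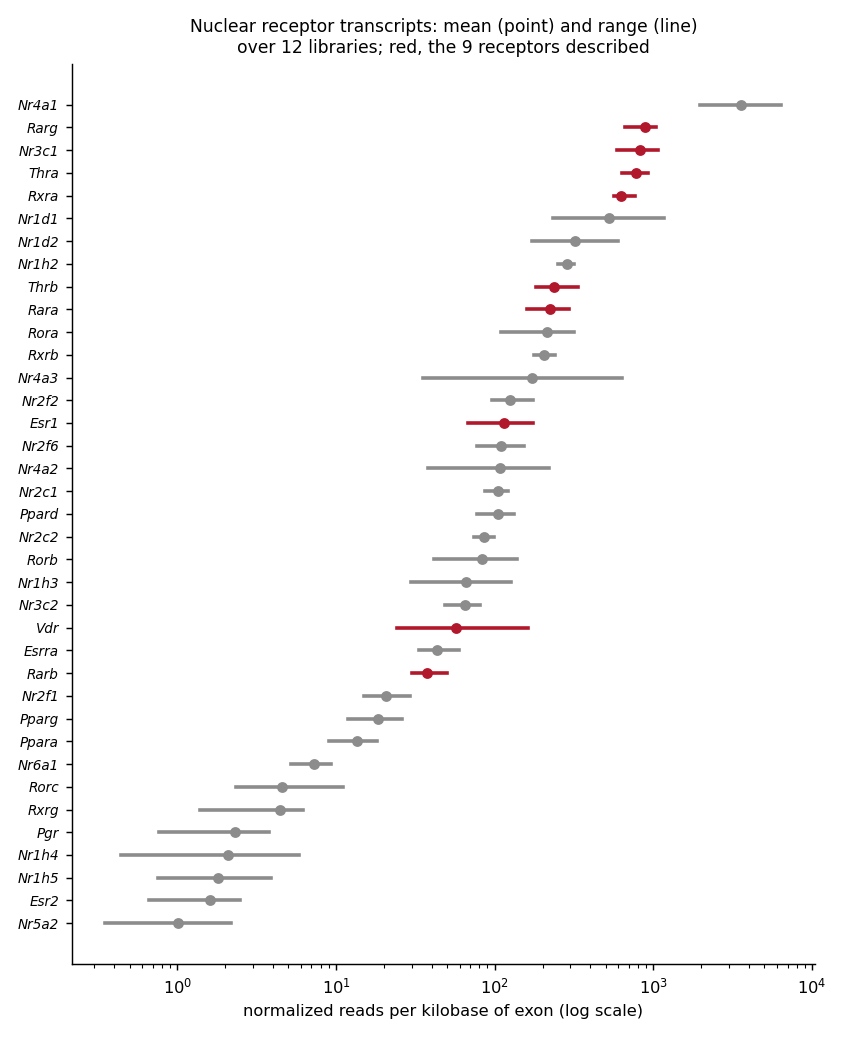
Normalized reads per kilobase of exon (horizontal axis, log scale) of nuclear receptor genes (rows) in DP cells. Points are means and lines the range of 12 libraries, with the 9 receptors in red. Not every gene of the family is drawn, among them Esrrg, which had 0 reads in at least 1 library. Rarg, Nr3c1, Thra and Rxra lie at 623 to 890, and Vdr has the widest line of the 9, from 24.4 to 162.

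Of 40 other nuclear receptor genes, 24 were tested at P16 and 2 were lower in dMF1/2, with 0 higher. Nr4a2, an orphan receptor, fell by 1.68 on the log2 scale (SE 0.15, adjusted p = 0.00329 by limma), and Nr1h3, an oxysterol receptor, fell by 1.38 (SE 0.15, adjusted p = 0.00544). In the control days 2 of 25 rose, Rora (0.96, adjusted p = 0.0100) and Nr1d2 (0.92, adjusted p = 0.0471), both of the circadian clock, and Nr2f6 fell by 0.62 (adjusted p = 0.0101). In the dMF1/2 days and at P14, 0 of 25 were called by limma, with 5 and 3 at an unadjusted p under 0.05. At P14 Nr4a2 (154 to 200 against 290 to 687 normalized reads) and Nr1h3 (75.0 to 93.7 against 130 to 277) were also lower in dMF1/2, without overlap. In dMF1/2 days Rora (1766 to 2403, then 2661 to 3690) and Nr1d2 (1033 to 1541, then 1745 to 2446) also rose without overlap. Nr2f6 (339 to 408, then 244 to 306) also fell without overlap. The Nr1d2 call was lost by edgeR's quasi-likelihood test (0.0531), with only the control libraries (0.105), and without P14 control replicate 1 (0.159) or 2 (0.128) or P16 control replicate 1 (0.168) or 2 (0.0744).

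Coregulators carry the effect of a bound receptor to the transcription machinery. Of 18 coregulator genes, Ncoa1, a coactivator, was higher in dMF1/2 at P16 (0.39, SE 0.07, adjusted p = 0.0288 by limma), a call lost without any of the 6 libraries (0.0593 to 0.114). In control days Tbl1xr1, of the corepressor complex, rose (0.64, adjusted p = 0.0187), a call that was lost without P14 control replicate 1 (0.0666) or 2 (0.0612) or P16 control replicate 1 (0.0591). Of 7 chaperones and immunophilins of steroid receptors, Hsp90aa1 rose by 0.95 (adjusted p = 0.0310) and Fkbp5 by 1.69 (adjusted p = 0.0110) in control days, and Fkbp4 fell by 0.38 (adjusted p = 0.00775). The Hsp90aa1 call was lost without P14 control replicate 1 (0.113) or 2 (0.0801) or P16 control replicate 1 (0.0775) or 3 (0.104).

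Of 16 genes of ligand uptake and turnover, 9 were tested. Dio2, the enzyme that makes active thyroid hormone from its precursor, was higher in dMF1/2 at P16, with 3164 to 5455 normalized reads against 1793 to 2660 in control and no overlap. The log2 difference was 0.99 (SE 0.21, adjusted p = 0.0404 by limma), and the call was lost without 1 of 4 libraries in turn (0.0809 without the second control, 0.134 without the third control, 0.105 without the second mutant and 0.120 without the third mutant). At P14 Dio2 was also higher in dMF1/2 without overlap, at 4130 to 7642 against 2279 to 3441 normalized reads, but was not called. Slc16a10, a transporter of thyroid hormone and aromatic amino acids, rose in control days by 0.78 (SE 0.16, adjusted p = 0.0108). Cyp27b1, which activates vitamin D, had 4 to 14 reads per library and was not tested.

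Of 9 genes used as readouts of the glucocorticoid receptor, 8 were tested and 6 rose from P14 to P16 in control, with 0 that fell. The median log2 change of the 8 was 0.96 in control and 0.45 in dMF1/2, next to 0.01 in both over all genes tested, of which 14.5% and 5.8% were called. Fkbp5, which feeds back on the receptor, rose from 139 to 493 normalized reads in P14 control to 811 to 961 in P16 control, with no overlap (1.69, SE 0.35, adjusted p = 0.0110 by limma). Klf9 (log2 change 0.91, adjusted p = 0.00817), Tsc22d3 (0.86, adjusted p = 0.0140) and Sgk1 (adjusted p = 0.0266) rose as well. In dMF1/2, 0 of 8 were called by limma, and 5 had an unadjusted p under 0.05, while 1 was called when DESeq2 was used. The interaction was called for 0 of 8, with 2 at an unadjusted p under 0.05 (Fkbp5 and Per1), so a different response of the list in the genotypes was not established. At P16 Fkbp5 was lower in dMF1/2 (400 to 465 against 811 to 961 normalized reads, log2 difference -1.04, SE 0.10, adjusted p = 0.00396 by limma), although in the model of all 12 libraries its adjusted p was 0.120. The control count fell from 6 to 3 without the first P14 or the first P16 control library, and to 1 with only the 6 control libraries. At P16, without pairing, 5 of 8 readouts had an unadjusted p under 0.05 by limma, against 19% of all genes tested. Their median log2 difference, over all 8, was -0.42. With the replicate block, 5 of the readouts, counted in either direction, were called at P16, against 10.4% of all genes tested.

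Of 8 genes used as readouts of the retinoic acid receptors, Rarb included, 7 were tested. In the control days 2 were called as lower and 0 as higher by limma, with a median log2 change of -0.45. Cyp26b1, named after its values were seen, went the other way without overlap and was not called by limma. It had 7110 to 15466 normalized reads in P14 control and 17605 to 30864 in P16 control. Crabp2, which carries retinoic acid to its receptors, fell by 1.79 on the log2 scale (SE 0.29, adjusted p = 0.00418 by limma), and Dhrs3, which turns retinal back to retinol, fell by 0.78 (SE 0.22, adjusted p = 0.0394). At P16 Crabp2 was higher in dMF1/2, at 472 to 904 against 143 to 233 normalized reads (1.80, SE 0.25, adjusted p = 0.0104). The days in dMF1/2 gave 0 of 7 by limma and by DESeq2, and 0 at an unadjusted p under 0.05. The interaction was called for 0 of 7 by both, with 4 at an unadjusted p under 0.05. Dhrs3 was lost without P14 control replicate 1 (0.139) or 2 (0.0738) and without P16 control replicate 1 (0.0922). By DESeq2, 5 of the list, counted in either direction, were called in control days, against 19.1% of all genes tested.

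**Figure D5:**
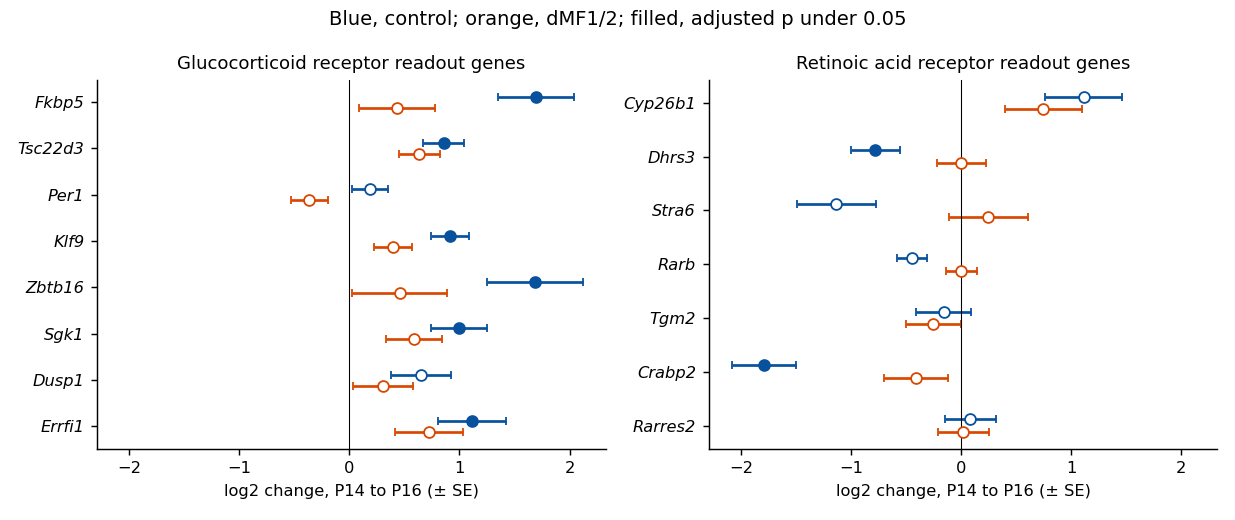
Log2 change from P14 to P16 (horizontal axes, ± SE) of readout genes of the glucocorticoid receptor (left) and the retinoic acid receptors (right), in control (blue) and dMF1/2 (orange). Filled points have an adjusted p under 0.05. On the left, 6 of 8 blue points and 0 orange points are filled, and on the right 2 of 7 blue points, Crabp2 and Dhrs3, are filled.

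Of 8 readouts of thyroid hormone, vitamin D and estrogen receptors, 5 were tested. In control days Klf9, also a glucocorticoid readout, rose (0.91, SE 0.17, adjusted p = 0.00817 by limma) and Igfbp4, an estrogen-induced binding protein, fell by 0.55 (SE 0.15, adjusted p = 0.0349). Igfbp4 was lost without 5 of the 6 control libraries in turn (0.0510 to 0.123). In the other comparisons 0 of 5 were called, with 1 at P14, 2 at P16 and 2 in dMF1/2 days at an unadjusted p under 0.05. Igfbp4 also fell in dMF1/2 days without overlap, with 12538 to 15316 normalized reads at P14 and 7889 to 10675 at P16. Cyp24a1, the usual readout of the vitamin D receptor, was not among the genes given for either day and so was not tested. The DP marker list moved with the same groups: 6 of 12 fell in control days (Corin by 2.22, adjusted p = 0.0133, and 0.0519 without P14 control replicate 1) and 4 of 12 were higher in dMF1/2 at P16 (Alpl by 2.45, adjusted p = 0.00329). Their part in the readout changes was not tested.

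For each receptor the genes with the most similar values over the 12 libraries were found among 10239 genes, as Pearson's r of log2 normalized reads. These are descriptions over libraries that share depth and group, with no test. Vdr was closest to Cspg4 (r = 0.98) and Fam43a (0.97), and remained close to them once group means were taken out (0.93 for both). Esr1 was closest to Creb5 (0.97) and Heatr5a (0.96), Nr3c1 to Usp31 (0.97) and Arhgef12 (0.97), and Thra to Slc12a9 (0.97) and Mta3 (0.97). Rara was closest to Zfp362 (0.98) and Prr12 (0.96), and Rarg to Efna2 (0.93) and Dlg5 (0.91). Thrb, Rarb and Rxra had looser matches, with Yrdc (0.87) and Cspp1 (0.86), Col6a3 (0.87) and Rgs19 (0.86), and Mbip (0.90) and Gm6483 (0.90). Between the receptors themselves, r was 0.88 for Thra and Rarg (0.72 with group means taken out), 0.79 for Rara and Rarg (0.83 with group means taken out) and -0.86 for Esr1 and Thra (-0.96 with group means taken out).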

How the data were processed

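RNA of sorted DP cells was sequenced single-end after ribosomal depletion. Per the labels and methods, the authors used Trimmomatic for trimming, TopHat 2 for alignment (mm10), HTSeq-count for reads per Ensembl gene (GRCm38.p4) and DESeq2 for normalization. The deposited signal values are therefore reads divided by size factors of 1 day, in a table per day of protein-coding genes (15209 at P14, 15334 at P16) in which the fewest reads over 6 libraries were 12. The tables' own fold changes, test statistics and p-values were not used. Libraries of other days were not analysed here. Every value was a whole multiple of 1 step per library (tolerance 0.001), so reads were recovered, 19302358 to 29860750 per library over the genes of its table. Depth of this size limits genes of a few reads only.

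The 9 receptors and the other gene lists were chosen with earlier results of these data known. Reads of the 14986 genes in both tables were put on 1 scale for all libraries by the median-of-ratios method. Genotypes were compared within a day on the deposited values, and days and the interaction in 1 model of 4 groups. All used limma 3.58.1 (R 4.3.3, trend) on log2(value + 1), genes with a mean of at least 10, and Benjamini-Hochberg adjustment over all genes tested at a threshold of 0.05. Fold changes are thus on the log2(value + 1) scale. Two-sided exact permutation tests of 3 against 3 libraries cannot go below 0.1. Per the study, each library came from 1 mouse, so p-values measure the spread between mice. Alternatives were DESeq2 1.42.0 and edgeR 4.0.16 (TMM, quasi-likelihood) on recovered reads, TMM scaling, pseudocounts of 0.1 and 10, no filter, at least 10 reads in every library, other sets of libraries, and the replicate number as a block. Same-numbered libraries of a day deviated together (correlations 0.586, 0.389 and 0.304 at P14, 0.256, 0.293 and 0.311 at P16), so the numbers pair libraries within a day. The scripts were tested on simulated reads. Named genes are all 9 receptors and, of every other list, at most 4 called genes per comparison with the smallest adjusted p and those that define the list. The 2 most alike genes were sought among genes with a mean of at least 100. Exon lengths are from GENCODE M21, gene coordinates from the deposited tables, and promoter windows from RefSeq (GRCm38.p6). Results of some genes of these lists are not reported here.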

Additional observations from a re-analysis of the deposited data

How the results depend on the processing

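Of the counts of receptors called, those at P14 and for the interaction were 0 under every alternative. The replicate block raised the P16 count from 1 to 3 (Vdr, Thra and Rarg), and leaving out 1 library gave 0 to 1. DESeq2 raised the control count from 3 to 5 (with Thra and Rarb), and leaving out 1 library gave 2 to 3. The dMF1/2 count of 2 became 0 with the replicate block, 0 with only the 6 libraries, and 0 to 1 with 1 library left out. Across days same-numbered control libraries correlated at -0.0545, -0.0621 and -0.130, and dMF1/2 libraries at 0.0292, 0.208 and -0.162, so that not every pair deviated together and the numbers were not taken to pair days. The block ended the dMF1/2 calls of Nr3c1 (adjusted p = 0.0544) and Rara (0.0560) by limma. Changes that were not called could turn in direction. With TMM scaling Rarb in dMF1/2 days was -0.011. Without 1 library in turn, log2 changes at P14 ran from -0.13 to 0.35 (Esr1), -0.080 to 0.099 (Thra), -0.19 to 0.16 (Thrb) and -0.055 to 0.060 (Rarg), and at P16 from -0.32 to 0.010 (Thrb). In dMF1/2 days they ran from -0.32 to 0.019 (Vdr), -0.086 to 0.060 (Thra), -0.057 to 0.31 (Thrb), -0.089 to 0.13 (Rarb), -0.12 to 0.036 (Rarg) and -0.086 to 0.084 (Rxra). The interaction ran from -0.15 to 0.028 (Nr3c1), -0.35 to 0.022 (Thrb), -0.019 to 0.13 (Rara) and -0.16 to 0.0073 (Rxra). The cause was not tested. Over all genes the calls at P14 were 7, against 207 by DESeq2, 224 with the replicate block and 0 to 18 without 1 library. At P16 they were 582, against 1122, 1403 and 149 to 684. In control days they were 1951 (14.5% of genes), against 2566 (19.1%) by DESeq2, 1125 with the block, 806 with only the 6 libraries and 693 to 1945 without 1 library. In dMF1/2 days they were 778, against 1332 by DESeq2, 370, 322 and 257 to 678.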
